A study of Mus musculus with 7 samples.

Results

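The sirtuins are the 7 genes Sirt1 to Sirt7, taken by symbol from a table of 21861 rows. All 7 were present once and all 7 passed the expression filter, among 15075 genes tested. They were measured by RNA-seq in retinal pigment epithelium (RPE), the pigmented layer that supports the photoreceptors, from aged mice collected 12 weeks after treatment with an adeno-associated virus (AAV). In the Old-GFP group (3 libraries) the vector carried GFP, and in the Old-GSTA4 group (4 libraries) it carried GSTA4, a glutathione transferase that conjugates aldehydes formed by lipid peroxidation. Both groups were old and had received a vector, so age itself and an eye without vector were not compared. The labels give no strain, exact age, sex, vector promoter or statement on pooling of animals, and nothing in them says that the libraries of a group came from separate animals, so p-values measure the spread between these libraries.

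Sirtuins remove acetyl or other acyl groups from lysines and consume NAD with each reaction, which ties their activity to the supply of that cofactor. SIRT1, SIRT6 and SIRT7 act mainly in the nucleus, SIRT2 mainly in the cytoplasm, and SIRT3, SIRT4 and SIRT5 in mitochondria. The RPE is a tissue of high oxidative metabolism, and the family is widely studied there in the context of ageing and oxidative stress.

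Sirt2 is the member on which the comparison turns, and its start is shown because it faces another gene. In the GENCODE M21 annotation of GRCm38, Sirt2 (ENSMUSG00000015149.14) lies on chromosome 7 from 28766735 to 28788661 on the plus strand. Nfkbib, which encodes an inhibitor of NF-kappaB, is transcribed away from it on the minus strand, and its annotated span from 28758251 to 28767512 reaches past the Sirt2 start, with 42 exonic bases in common. The 94 bases directly before Sirt2 that no annotated exon covers are chr7:28766641-28766734 on the plus strand (RefSeq promoter table, GRCm38.p6). The 13 capitals mark a match, on the minus strand, to the element that the factor ZNF143 is known to bind, a motif added after the promoters had been looked at.
Sirt2 upstream: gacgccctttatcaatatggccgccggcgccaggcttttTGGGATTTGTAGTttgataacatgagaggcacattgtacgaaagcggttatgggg

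In the 250 bases before RefSeq start sites, searched on both strands, the ZNF143 element occurred in 1.35% of 32851 windows and in Sirt2 and Sirt4. The E-box CACGTG, bound by clock and MYC family factors, was found before Sirt1 alone of the 7 genes (2 matches) and in 6.02% of all windows. TGACNNNGC, the core of the antioxidant response element bound by NRF2, was found before Sirt1 and Sirt3 and in 10.2% of all windows. CCAAT was found before Sirt2, Sirt3 and Sirt5 and in 33.8% of all windows, and the forkhead motif GTAAACA before none of the 7 and in 3.17% of all windows. None of these motifs overlapped the ZNF143 match of Sirt2. Before Sirt1, the core TGACNNNGC begins within an E-box. A match describes the letters only, and binding was not measured.

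Library totals ranged from 15329181 to 28998964 counts. The hGSTA4 row had 1 to 3 counts in Old-GFP and 45 to 5239 in Old-GSTA4, lowest in replicate 3, so it separated the groups, whereas the d2EGFP row had 99 to 3970 and 7 to 163 counts and overlapped. Old-GFP replicate 3 stood apart, with a correlation to the other libraries averaging 0.838 on log2 CPM against 0.910 to 0.926 for the others, and a trimmed-mean (TMM) factor of 1.36 against 0.868 to 1.05. CPM values here are counts scaled to a common, TMM-adjusted library total. The tissue label fits its markers in that Rpe65 reached 1767 to 11831 CPM, but rod markers were also abundant: 15 genes summed to 16483 to 44138 CPM in Old-GFP and 8906 to 15694 CPM in Old-GSTA4. All 15 were lower in Old-GSTA4, against 55.4% of all genes, and 14 were so at an unadjusted p-value under 0.05 (edgeR), against 6.63%. The 15 RPE markers summed to 23886 to 72157 CPM and 62883 to 111174 CPM, with 12 higher. In such bulk samples fewer cells of a type and less RNA per cell cannot be told apart.

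Sirt2 was the one sirtuin with higher transcript levels in every Old-GSTA4 library than in every Old-GFP library, by 1.44-fold on the group means. The other 6 overlapped between the groups, and the 95% intervals of their fold changes included 0. In edgeR's quasi-likelihood test 0 of 7 sirtuins and 0 of 15075 genes (0%) passed an adjusted p-value of 0.05. Not even the hGSTA4 row passed, although it separated the groups. At an unadjusted p-value under 0.05 there was 1 sirtuin, Sirt2, against 11.9% of all genes (1794), 5.27% of all genes in the higher and 6.63% in the lower direction. Groups did not overlap for 1 of 7 sirtuins, against 12.0% of all genes, made up of 6.44% that were higher and 5.61% that were lower in Old-GSTA4. Both shares for the family, which is 1 gene in 7, are near the background. The median log2 fold change was 0.17 over the 7 sirtuins, 4 higher and 3 lower, and -0.07 over all genes tested. DESeq2 and limma-voom called 166 and 146 genes at the adjusted threshold, 0 of them sirtuins.

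**Figure D1:**
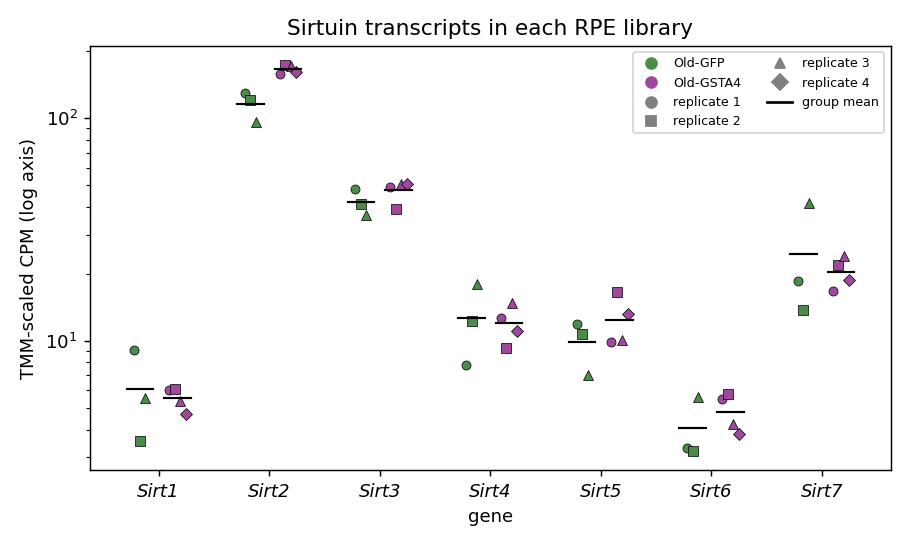
TMM-scaled CPM (log axis) of each sirtuin in each library, green for Old-GFP and purple for Old-GSTA4, with the marker shape giving the replicate and the black line the group mean. For Sirt2 the 4 Old-GSTA4 libraries (158 to 173 CPM) lie above the 3 Old-GFP libraries (96.6 to 129 CPM). For the other 6 genes the groups overlap, and Old-GFP replicate 3 is the highest library for Sirt4 and Sirt7.

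Sirt2 encodes the mainly cytoplasmic sirtuin, which deacetylates alpha-tubulin among other proteins. Its level was 129, 121 and 96.6 CPM in Old-GFP replicates 1 to 3 and 158, 173, 172 and 161 CPM in Old-GSTA4 replicates 1 to 4. The lowest Old-GSTA4 library, replicate 1, was above the highest Old-GFP library, also replicate 1. The group means were 116 CPM ± 16.99 (SD, n = 3) and 166 CPM ± 7.51 (SD, n = 4). The log2 fold change was 0.52 ± 0.20 (SE), with a 95% interval of 0.07 to 0.98. In edgeR's quasi-likelihood test the adjusted p was 0.383 (unadjusted 0.0280), so the difference did not pass the threshold, although the libraries separated in 4 of 4 against 3 of 3. Over the alternatives its adjusted p-value ranged from 0.132 to 0.882.

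The size of the Sirt2 difference depended on the scaling, whereas the groups stayed separate under all 3 scalings tried (TMM, library totals and median of ratios). Relative to library totals, without TMM, Sirt2 was at 128, 127 and 132 CPM in Old-GFP and at 153, 156, 149 and 151 CPM in Old-GSTA4. Both groups were then tight, 129 CPM ± 2.57 (SD, n = 3) against 152 CPM ± 3.10 (SD, n = 4), a ratio of 1.18. The log2 fold change on that scale was 0.24 ± 0.16 (SE), with adjusted p = 0.443 (edgeR), while the median of all genes was -0.37. Old-GFP replicate 3, the lowest library with TMM, was the highest of its group with library totals. Without it the log2 fold change with TMM was 0.41 ± 0.17 (SE), at adjusted p = 0.380 (edgeR).

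As a share of all sirtuin counts, a measure that no scaling factor enters, Sirt2 took 56.7% (95% Wilson interval 55.3 to 58.1), 58.8% (57.5 to 60.1) and 45.7% (44.2 to 47.2) in Old-GFP. In Old-GSTA4 it took 61.3% (59.9 to 62.6), 63.7% (62.4 to 64.9), 61.2% (59.8 to 62.5) and 61.2% (60.0 to 62.3). Every Old-GSTA4 share was above every Old-GFP share, and the gap between the nearest libraries was 58.8% to 61.2%. The other 6 sirtuins together summed to 98.6, 84.8 and 115 CPM in Old-GFP and to 99.99, 98.6, 109 and 102 CPM in Old-GSTA4, which overlapped.

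Rod, cone and inner retina markers moved with the groups in the opposite direction to Sirt2, with 15 of 15, 10 of 10 and 9 of 10 lower in Old-GSTA4. So did 11 of 12 macrophage and microglia markers and 9 of 10 endothelium markers. Mueller glia and choroid fibroblast markers had 6 of 9 and 4 of 8 lower, and of all genes 55.4% were lower. Lens and RPE markers moved in the same direction as Sirt2, with 8 of 8 lens markers tested and 12 of 15 RPE markers higher. The lens median log2 fold change was 3.01. At an unadjusted p-value under 0.05 (edgeR) 6 lens markers were higher, against 5.27% of all genes. Summed lens markers overlapped between the groups, at 2841 to 11652 CPM and 4237 to 112829 CPM, and without Old-GSTA4 replicate 2, the library where they are highest, the Sirt2 value was 0.52 ± 0.22 (SE). The part of the lens, cone, inner retina, macrophage, endothelium and RPE markers in the Sirt2 difference was not tested. With a rod score, the mean log2 CPM of the rod markers, as covariate the Sirt2 log2 fold change was 0.33 ± 0.29 (SE). Its unadjusted p-value was 0.277 and adjusted p = 0.754 (edgeR). The rod score was higher in every Old-GFP library (8.95 to 10.4) than in every Old-GSTA4 library (8.06 to 8.88). This fit therefore cannot tell rod content and group apart. Y-linked transcripts summed to 465 CPM in Old-GFP replicate 1 and to 407 and 307 CPM in Old-GSTA4 replicates 3 and 4, against 2.83 CPM or less in the other 4 libraries. Among the libraries with Y-linked counts Sirt2 was at 129 CPM in the 1 Old-GFP library and at 172 and 161 CPM in the 2 Old-GSTA4 libraries. Among the others it was at 121 and 96.6 CPM against 158 and 173 CPM. Every Old-GSTA4 library was above every Old-GFP library, so any division of the libraries keeps that order and this one is no test.

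Nfkbib, the divergent neighbour of Sirt2, was at 19.1, 18.7 and 17.5 CPM in Old-GFP and at 30.3, 22.5, 27.9 and 21.7 CPM in Old-GSTA4. These groups did not overlap either, with a log2 fold change of 0.47 ± 0.23 (SE) and adjusted p = 0.441 (edgeR). With library totals they overlapped, at 18.8 to 23.9 CPM and 20.3 to 29.2 CPM. Strand was not marked by the library kit, so reads in the 42 shared exonic bases, 0.834% of the merged Sirt2 exons, cannot be assigned by strand. Slc25a51, the mitochondrial NAD carrier and the second most alike gene to Sirt2 over the 7 libraries, was at 42.4, 45.8 and 33.6 CPM in Old-GFP and at 52.9, 58.9, 53.5 and 55.4 CPM in Old-GSTA4. Its groups were separate with TMM and overlapped with library totals, at 41.9 to 48.0 CPM and 46.5 to 53.3 CPM.

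**Figure D2:**
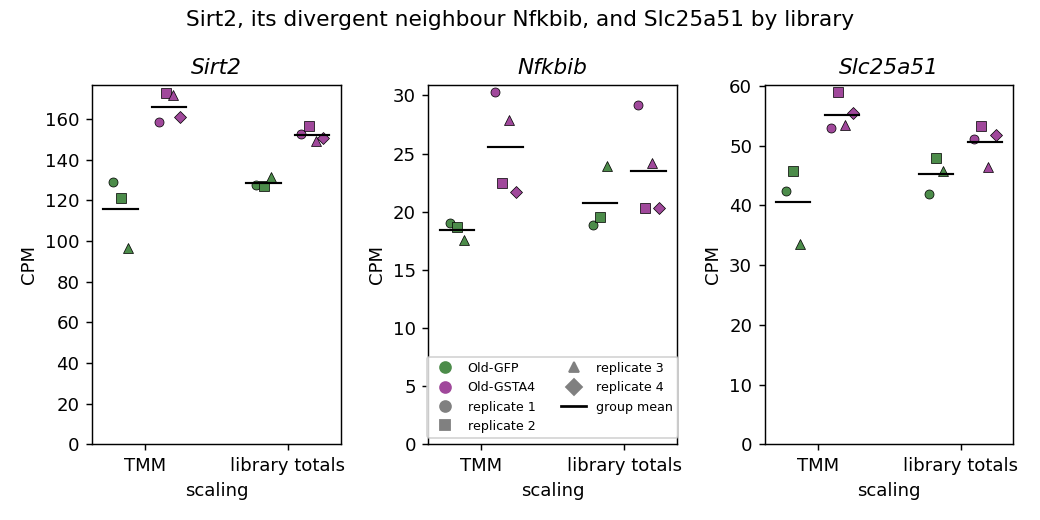
CPM of Sirt2, Nfkbib and Slc25a51 in each library with TMM scaling (left in each panel) and relative to library totals (right), green for Old-GFP and purple for Old-GSTA4, with black lines at the group means and axes from 0. All 3 genes separate the groups with TMM, and Sirt2 alone of the 3 does so with library totals as well (127 to 132 against 149 to 156 CPM).

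Of the mitochondrial sirtuins, Sirt3, Sirt4 and Sirt5, none differed between the groups beyond the spread of libraries. Sirt3, the main mitochondrial deacetylase, was at 47.9, 41.2 and 36.9 CPM in Old-GFP and at 49.2, 39.0, 50.8 and 50.7 CPM in Old-GSTA4. In Old-GSTA4 3 libraries lay just above the highest Old-GFP library, and replicate 2 lay inside the Old-GFP range. The Sirt3 difference was 0.17 ± 0.20 on the log2 scale (SE), adjusted p = 0.755 (edgeR), and turned to -0.11 with library totals. Its interval of -0.28 to 0.63 includes the value found for Sirt2.

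Sirt4, a mitochondrial sirtuin that restrains glutamate dehydrogenase, was at 7.83, 12.3 and 18.1 CPM in Old-GFP and at 12.7, 9.31, 14.8 and 11.1 CPM in Old-GSTA4. All 4 Old-GSTA4 libraries fell inside the Old-GFP range, which spanned 2.31-fold. On the log2 scale the difference was -0.09 ± 0.34 (SE), with a 95% interval of -0.85 to 0.68. Without Old-GFP replicate 3 it was 0.25 and with library totals -0.46, so no direction can be given for this gene.

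Sirt5, which removes succinyl, malonyl and glutaryl groups, was at 11.9, 10.7 and 7.01 CPM in Old-GFP and at 9.89, 16.6, 10.1 and 13.2 CPM in Old-GSTA4. Old-GSTA4 replicates 2 and 4 were the highest of the 7 libraries. Old-GFP replicate 3 was the lowest with TMM, though not with library totals. As log2 fold change this gave 0.33 ± 0.32 (SE), with a 95% interval of -0.40 to 1.06 and adjusted p = 0.708 (edgeR). Adding the rod score as covariate gave -0.21.

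The nuclear sirtuins Sirt1, Sirt6 and Sirt7 likewise did not separate the groups. Sirt1, a deacetylase of histones and of factors such as p53, FOXO proteins and PGC-1alpha, was at 9.13, 3.55 and 5.52 CPM in Old-GFP and at 5.999, 6.09, 5.35 and 4.69 CPM in Old-GSTA4. Its Old-GFP libraries spanned 2.57-fold and enclosed all 4 Old-GSTA4 libraries, which spanned 1.30-fold. Between the groups the log2 fold change was -0.13 ± 0.41 (SE), with a 95% interval of -1.04 to 0.78. Without Old-GFP replicate 1, the library with the highest value, it was 0.29.

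Sirt6, a chromatin deacetylase with roles in DNA repair and glycolysis control, was at 3.31, 3.21 and 5.62 CPM in Old-GFP and at 5.47, 5.76, 4.23 and 3.80 CPM in Old-GSTA4. Old-GFP replicate 3 lay among the Old-GSTA4 libraries and the other 2 Old-GFP libraries lay below them. On the log2 scale the Sirt6 value was 0.25 ± 0.41 (SE), with a 95% interval of -0.67 to 1.18. Without Old-GFP replicate 3, an alternative chosen after seeing the data, the Sirt6 groups no longer overlapped and the count of sirtuins without overlap was 2 in place of 1. With library totals the fold change was -0.10.

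Sirt7, a nucleolar sirtuin linked to ribosomal RNA transcription, was at 18.5, 13.8 and 41.7 CPM in Old-GFP and at 16.8, 21.9, 23.98 and 18.7 CPM in Old-GSTA4. Old-GFP replicate 3 held the highest value by far, and the other 6 libraries lay between 13.8 and 23.98 CPM. The log2 fold change was -0.28 ± 0.37 (SE) with all libraries and 0.34 ± 0.26 (SE) without that one, with adjusted p = 0.787 and 0.611 (edgeR). The direction of the Sirt7 difference therefore rested on 1 library. Mafg, the next gene upstream on the same strand, shares 124 exonic bases with Sirt7 and was at 25.0 ± 8.42 CPM in Old-GFP (SD, n = 3) against 30.2 ± 9.09 CPM in Old-GSTA4 (SD, n = 4).

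**Figure D3:**
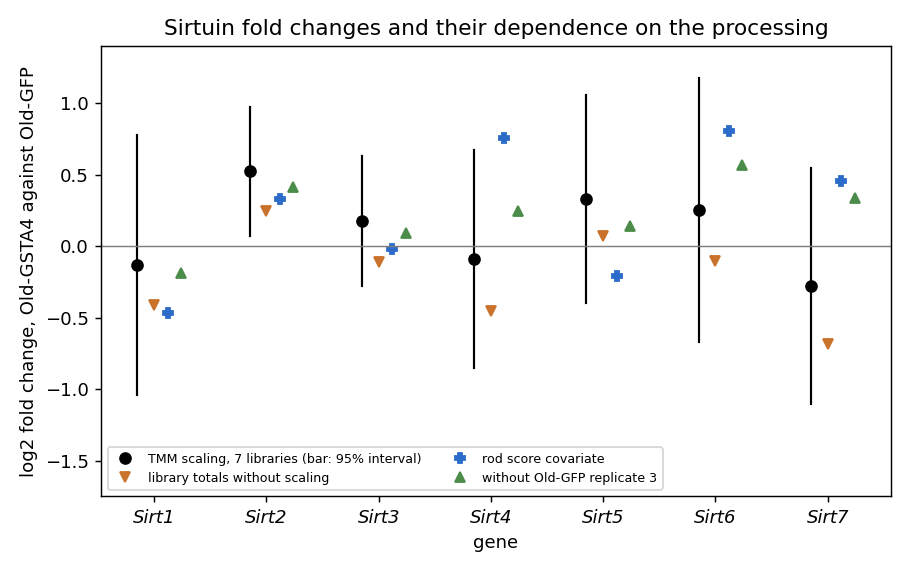
Log2 fold change of Old-GSTA4 against Old-GFP for each sirtuin with TMM scaling and all 7 libraries (black, bar: 95% interval), and the same value with library totals, with the rod score as covariate and without Old-GFP replicate 3. Sirt2 stays above 0 under all 4 settings (0.24 to 0.52), whereas Sirt3 to Sirt7 each change sign under at least 1 of them and Sirt1 stays below 0.

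Levels of different genes were compared per kilobase, on the merged exons of GENCODE M21, whose release may differ from the one used for counting. Sirt2 was the most abundant in 7 of 7 libraries, with a median of 31.5 CPM per kilobase (19.2 to 34.4). Sirt3 followed at 8.01 CPM per kilobase (6.17 to 8.50), and the ranges of these 2 genes did not overlap. Sirt4 was at 5.12 (3.27 to 7.53) and Sirt7 at 3.63 (2.68 to 8.11) CPM per kilobase, and with Sirt4 above Sirt7 in 4 of 7 libraries these neighbours did not differ beyond their spread. Sirt5, at 1.76 CPM per kilobase (1.15 to 2.72), was below Sirt7 in 7 of 7 libraries although the ranges overlapped. The lowest levels per kilobase were those of Sirt6 at 1.52 (1.15 to 2.07) and Sirt1 at 1.04 (0.666 to 1.71), with ranges that overlapped each other and Sirt5. With the longest coding transcript as length the order was the same except that Sirt7 stood above Sirt4, in 7 of 7 libraries. Sirt3 is the member whose counts are most open to overlap, since 760 of its exonic bases (12.7%) are shared with Psmd13 and Ric8a on the other strand.

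In the same annotation the nuclear members lie on chromosome 10 (Sirt1, 63319005 to 63381704, and Sirt6, 81621785 to 81627797) and chromosome 11 (Sirt7, 120618372 to 120625240), all on the minus strand. The mitochondrial members lie on chromosome 7 (Sirt3, 140863666 to 140882309, minus), chromosome 5 (Sirt4, 115478010 to 115484725, minus) and chromosome 13 (Sirt5, 43365496 to 43395203, plus). Sirt4, Sirt5 and Sirt6 share 0 exonic bases with another gene.

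Depth differed between members. Sirt2 rested on 2011 to 4363 counts per library, and Sirt6 and Sirt1 on 71 to 120 and 91 to 196, where counting error alone is 9.13% to 11.9% and 7.14% to 10.5%. The coefficient of variation over the 7 libraries was smallest for Sirt3 (13.1%), 20.2% for Sirt2 and largest for Sirt7 (41.5%). For Sirt1, Sirt4, Sirt6 and Sirt7 the Old-GFP libraries spanned a wider range than the Old-GSTA4 libraries, 1.75-fold to 3.03-fold against 1.30-fold to 1.59-fold. With TMM, Sirt2 too spanned more in Old-GFP (1.34-fold) than in Old-GSTA4 (1.09-fold), while Sirt3 and Sirt5 spanned about the same in both. On that scale Old-GFP replicate 3 was the highest library for Sirt4 and Sirt7 and the lowest for Sirt2, Sirt3 and Sirt5. With library totals it was again the highest for Sirt4 and Sirt7. It was then also the highest for Sirt3 (50.3 CPM) and Sirt6 (7.66 CPM), and no longer the lowest for Sirt2 or Sirt5.

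Likeness between genes was measured as the root-mean-square difference of log2 CPM over the 7 libraries, each gene centred on its own mean, among the 11109 genes whose log2 CPM averaged 2 or more. Within the family Sirt2 and Sirt3 were closest (0.24) and Sirt5 and Sirt7 farthest apart (0.72). The genes most like Sirt2 were Tbccd1 (0.06) and Slc25a51 (0.08), where the median gene was at 0.46. Apeh (0.05) was among the 2 genes most like Sirt3. Sirt5 was most like Bag2 (0.09) and Mtpap (0.09), and Sirt4 like Crlf2 (0.08) and Pkd1 (0.10). Sirt1 was most like Rif1 (0.11) and Lmbrd2 (0.16), Sirt6 like Cpsf6 (0.08) and Tbc1d5 (0.10), and Sirt7 like AU022252 (0.10) and Nfkb1 (0.11). These distances rest on 7 libraries that share their depth and composition, and carry no test.

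The genes around the sirtuins were taken from lists of NAD metabolism, SIRT1 regulators, sirtuin substrates and the zinc-dependent histone deacetylases, the other deacetylase family. Among their 101 genes edgeR gave 0 at the adjusted threshold. DESeq2 gave 4 (Bst1, Per2 and Srebf1 among them), against 1.31% of all genes. The 3 from limma-voom (Bst1, Hdac2 and Per2) stood against 146 of all 15075 genes. Rod marker sums were lower in Old-GSTA4 beside each of these lists. With the rod score in the model, log2 values were 1.12 for Srebf1, 1.02 for Per2 and -0.91 for Glud1, each at an unadjusted p-value under 0.05. They were -0.85 for Bst1, 0.27 for Slc25a51, -0.58 for Hdac2 and -0.18 for Arntl, each with an unadjusted p-value above 0.05. Because the rod score itself separates the groups, these p-values cannot tell rod content and group apart for any of these genes. Values with the rod score are not given for most other list genes.

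NAD synthesis and salvage genes had a median log2 fold change of 0.23 over 18 tested of 20 listed, with 10 higher and 8 lower. Of the 18 tested, 1 gene, Slc25a51, had an unadjusted p-value under 0.05, where 11.9% of all genes did. Slc25a51 had a log2 fold change of 0.44 ± 0.19 (SE) and adjusted p = 0.413 (edgeR), and its unadjusted p was 0.0501 or more without any one library. Nampt, the rate-limiting enzyme of NAD salvage, was at 76.5 ± 35.2 CPM in Old-GFP (SD, n = 3) against 72.5 ± 9.62 CPM in Old-GSTA4 (SD, n = 4), or -0.08 ± 0.31 (SE) as log2 fold change. Nmnat1, the nuclear enzyme that completes NAD, was at 12.4 and 14.3 CPM on average. Nadk, which phosphorylates NAD to NADP, was at 112 ± 35.1 CPM in Old-GFP (SD, n = 3) against 173 ± 36.7 CPM in Old-GSTA4 (SD, n = 4), with overlapping groups. Haao, an enzyme of the de novo route, was low, at 2.63 and 0.788 CPM, and its groups did not overlap. Nadk2, the mitochondrial NAD kinase, had a log2 fold change of -0.30 ± 0.21 (SE).

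Genes that consume NAD or clear nicotinamide leaned lower, 9 of 11 against 2 higher, at a median of -0.20 on the log2 scale, where 55.4% of all genes were below 0 and their median was -0.07. Of the 11, 1 gene, Bst1, had an unadjusted p-value under 0.05, where 11.9% of all genes did. Bst1, a surface enzyme that hydrolyses NAD, was at 14.3 CPM ± 2.08 (SD, n = 3) in Old-GFP and 5.32 CPM ± 1.70 (SD, n = 4) in Old-GSTA4, without overlap. The Bst1 difference was -1.43 ± 0.34 on the log2 scale (SE), at unadjusted p = 0.00213 and adjusted p = 0.363 (edgeR). Cd38, its relative, was low in both groups, at 2.81 and 2.60 CPM. Parp1, the main consumer of NAD in DNA damage, was at 39.3 and 38.2 CPM, or -0.04 ± 0.24 (SE) as log2 fold change. Sarm1, an NAD hydrolase of axons, was at 42.7 ± 29.8 CPM in Old-GFP (SD, n = 3) against 23.9 ± 11.5 CPM in Old-GSTA4 (SD, n = 4), with overlap. Parp3 and Parp10 were the 2 members above 0, at log2 fold changes of 0.28 and 0.15.

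Among 12 regulators of SIRT1, 4 were higher and 8 lower, with a median of -0.13. Elavl1, whose protein HuR binds the Sirt1 transcript, was at 19.2 ± 1.97 CPM in Old-GFP (SD, n = 3) against 13.3 ± 1.07 CPM in Old-GSTA4 (SD, n = 4), with no overlap. Its log2 fold change was -0.52 ± 0.23 (SE), at adjusted p = 0.416 (edgeR). Of the 12, 1 gene, Elavl1, had an unadjusted p-value under 0.05, where 11.9% of all genes did. Ccar2, which encodes the SIRT1 inhibitor DBC1, had a log2 fold change of -0.26 ± 0.40 (SE). Senp1, Mdm2 and Rps19bp1 were at -0.33, 0.38 and 0.22, each within 2 standard errors of 0.

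Nuclear and cytosolic substrates divided evenly, with 11 of 22 higher and 11 lower and a median of 0.00. Per2, a clock repressor, was at 19.3 ± 2.09 CPM in Old-GFP (SD, n = 3) against 38.3 ± 3.75 CPM in Old-GSTA4 (SD, n = 4), or 0.99 ± 0.21 (SE) as log2 fold change with an unadjusted p-value of 0.000879. Arntl, which encodes the clock activator BMAL1, was at 35.1 ± 17.7 CPM in Old-GFP (SD, n = 3) against 19.1 ± 2.77 CPM in Old-GSTA4 (SD, n = 4), or -0.88 ± 0.32 (SE) as log2 fold change. The Arntl value rested on Old-GFP replicate 3, at 55.5 CPM against 25.0 and 24.7 CPM in the other 2: without it the value was -0.38, at unadjusted p = 0.136 (edgeR). Without Old-GSTA4 replicate 1, 3 or 4 it was -0.83, -0.82 and -0.81, at unadjusted p from 0.0502 to 0.0560. Srebf1, a regulator of lipid synthesis, was at 127 ± 12.7 CPM in Old-GFP (SD, n = 3) against 223 ± 34.2 CPM in Old-GSTA4 (SD, n = 4), or 0.82 ± 0.22 (SE) as log2 fold change. All 3 had separate groups, at adjusted p from 0.363 to 0.374 (edgeR). They were named for their small p-values. Of the 22 genes, 2 were higher and 1 lower at an unadjusted p-value under 0.05, against 5.27% and 6.63% of all genes. Groups did not overlap for 3 of the 22 in the higher and 2 in the lower direction, against 6.44% and 5.61% of all genes. Ppargc1a, which encodes PGC-1alpha, was at 69.6 ± 10.3 CPM in Old-GFP (SD, n = 3) against 92.4 ± 12.3 CPM in Old-GSTA4 (SD, n = 4), also separate, with an unadjusted p-value of 0.0778, and at 0.26 on the log2 scale with the rod score in the model. Foxo1 and Foxo3 had log2 fold changes of -0.10 ± 0.27 (SE) and -0.34 ± 0.25 (SE).

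Mitochondrial substrates leaned higher, with 17 of 24 tested above 0 and a median of 0.20 against -0.07 for all genes. At an unadjusted p-value under 0.05, 1 was higher and 2 were lower, against 5.27% and 6.63% of all genes. Groups did not overlap for 4 that were higher and 3 that were lower, against 6.44% and 5.61%. Summed CPM overlapped, at 4376 to 6873 in Old-GFP, lowest in replicate 3, and 6625 to 8231 in Old-GSTA4. Glud1, the glutamate dehydrogenase controlled by SIRT4, was at 31.2 ± 0.654 CPM in Old-GFP (SD, n = 3) against 18.6 ± 2.83 CPM in Old-GSTA4 (SD, n = 4), or -0.75 ± 0.22 (SE) as log2 fold change. Its groups did not overlap, at adjusted p = 0.363 (edgeR). Sod2 and Idh2, antioxidant targets of SIRT3, had log2 fold changes of 0.09 ± 0.22 (SE) and 0.39 ± 0.28 (SE), and Acadvl, a fatty acid oxidation enzyme, of 0.50 ± 0.23 (SE).

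Of the 11 zinc-dependent histone deacetylases 6 were higher and 5 lower, at a median of 0.11 on the log2 scale. Hdac2, a nuclear class I enzyme, was at 37.9 ± 8.38 CPM in Old-GFP (SD, n = 3) against 19.1 ± 7.89 CPM in Old-GSTA4 (SD, n = 4), or -0.99 ± 0.34 (SE) as log2 fold change without overlap. Hdac3 and Hdac9 had log2 fold changes of 0.56 ± 0.23 (SE) and -0.78 ± 0.32 (SE), and Hdac4 of 0.44 ± 0.27 (SE). Without Old-GFP replicate 2 the Hdac2 value was -0.80, at unadjusted p = 0.0719. Of the 11, 3 had an unadjusted p-value under 0.05, where 11.9% of all genes did.

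**Figure D4:**
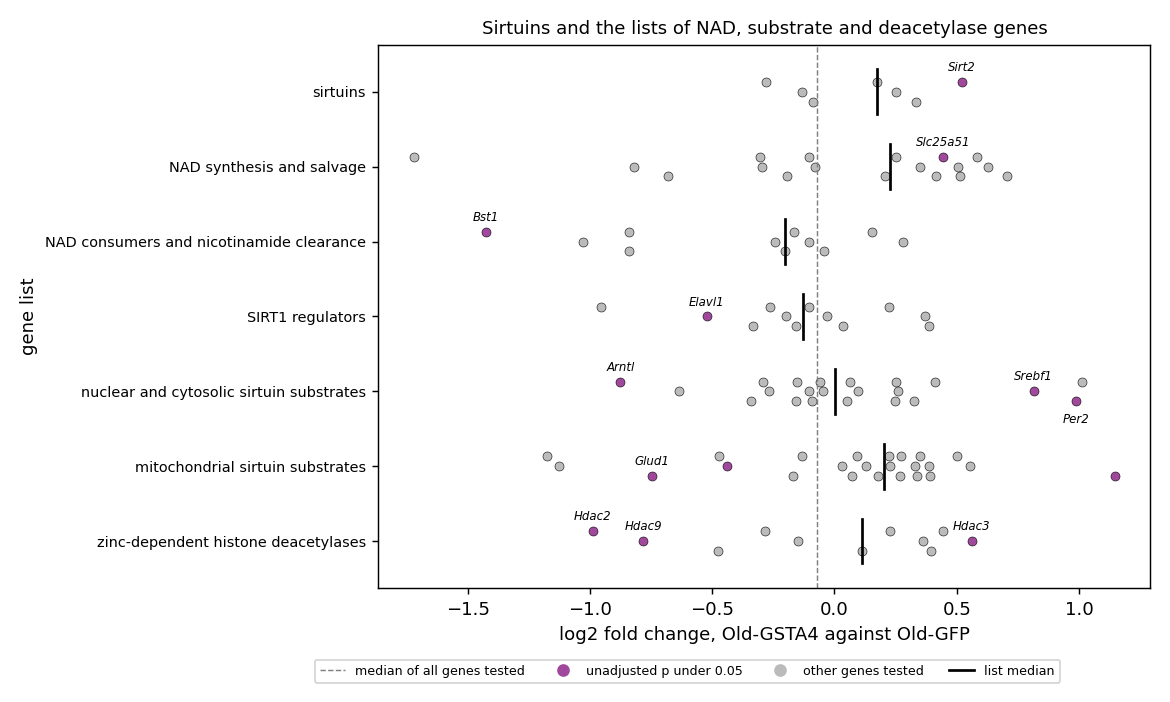
Log2 fold change of every tested gene in the sirtuin family and in 6 lists around it, 1 point per gene, purple at an unadjusted p-value under 0.05 (not all of these are labelled), with the list median as a black line and the median of all genes (-0.07) dashed. Sirt2 and Slc25a51 lie above 0 and Bst1 (-1.43) at the low end of the NAD consumers, and none of the points passes the adjusted threshold in edgeR.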

How the data were processed

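The authors deposited 1 table of raw read counts, with gene symbols as rows and libraries as columns. The submitters' processing notes list STAR 2.7.1a and featureCounts 1.6.2 with mouse and human builds. The annotation release, strand setting and multi-mapping rule are not given in the sources used here. Per the labels' protocols, SMART-Seq v4 made amplified cDNA from polyadenylated RNA, and a transposase fragmented it. No molecular identifiers are mentioned, so the Wilson intervals of shares cover counting error only, whereas those of fold changes rest on the spread between libraries. Columns were matched by library name, with replicates named as in the titles.

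Counts were tested with edgeR 4.0.16 (R 4.3.3): quasi-likelihood F-test, robust, TMM, default filter, group as the only factor, all 7 libraries, Benjamini-Hochberg adjustment over 15075 genes, threshold 0.05. Standard errors are the fold change over the root of F. Log2 CPM used a prior count of 2. DESeq2 1.42.0 and limma 3.58.1 were alternatives, as were other scalings and filters, rod or Y-linked covariates, replicate blocks and leaving out each library. The members and lists were chosen with earlier results of these data known. Named genes were all sirtuins, the 2 smallest p-values in each direction per list, 10 fixed names and the 2 genes most alike each sirtuin; the neighbours Nfkbib and Mafg were added after values were seen. A few genes that this rule names are not reported here. On simulated counts for Old-GSTA4 against Old-GFP (14714 genes) the fit recovered 98% of 200 genes changed 8-fold, with 5 false calls. It made 0 calls where no gene was changed. The changed genes averaged 200 counts or more, so power for smaller changes or lower counts, such as those of the sirtuins, was not measured.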

Additional observations from a re-analysis of the deposited data

Results flagged for a closer look

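In the Old-GSTA4 group 67 measures were examined for a library far from the other 3, where chance gives about 1 in 20, and 5 were found. Some measures, Apeh and Tbccd1 among them, were chosen for likeness to a sirtuin over these same libraries. The measures are therefore not independent, and 1 pattern can be counted more than once. Sirt3 was at 39.0 CPM in replicate 2 against 49.2 to 50.8 CPM in the others, and Apeh, one of the genes most like it, at 54.5 CPM against 64.9 to 66.7 CPM. Replicate 2 was also apart for Tbccd1, at 41.3 CPM against 34.9 to 35.7 CPM, and for Arntl, at 23.2 CPM against 17.3 to 18.2 CPM. Replicate 2 is the library with the highest summed lens markers, 112829 CPM against 4237 to 24138 CPM in the rest of its group, and their part in these values was not tested. Senp1 was at 24.3 CPM in replicate 1 against 10.6 to 12.2 CPM in the others.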

How the results depend on the processing

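Sirt2 kept its direction in all 10 alternatives (0.24 to 0.55) and in the 7 fits without one library each (0.41 to 0.61), and no sirtuin passed the adjusted threshold in any of the 17. Sirtuins at an unadjusted p-value under 0.05 numbered 0 in place of 1 with library totals, either replicate block and the rod score, and 0 to 1 without one library. Without Old-GFP replicate 2 or Old-GSTA4 replicate 3, Sirt2 had an unadjusted p-value of 0.0614 in both fits. Signs turned for Sirt1 with limma-voom (0.13) and the replicate block by titles (0.039), for Sirt3 with library totals (-0.11) and the rod score (-0.023), for Sirt5 with the rod score (-0.21) and for Sirt6 with library totals (-0.10). Sirt4 turned with limma-voom (0.090), the block by library names (0.089), the rod score (0.76) and the Y-linked covariate (0.011), and Sirt7 with limma-voom (0.34) and the rod score (0.46). Without one library each, Sirt1 ranged from -0.40 to 0.29, Sirt4 from -0.33 to 0.25 and Sirt7 from -0.56 to 0.34. The causes were not tested. Sirtuins without overlap numbered 2 without Old-GFP replicate 3.

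Genes past the adjusted threshold numbered 166 in DESeq2, 146 in limma-voom, 1 with the rod score, 1 with each replicate block, 0 to 1 without one library (1 without Old-GSTA4 replicate 3), and 4 and 3 list genes in DESeq2 and limma-voom. Those at an unadjusted p-value under 0.05 numbered 3277 in limma-voom, 849 with the replicate block by titles, 1148 with that by library names and 1032 (without Old-GSTA4 replicate 3) to 1987 without one library. With library totals 11.1% of such genes were higher, against 44.3% with TMM. After subtracting each gene's group mean from its log2 CPM, what remained correlated between same-numbered libraries at -0.33, 0.08 and -0.03 by titles. No Old-GFP library matched its own number best on this measure, so the numbers were not taken as pairs. Counts of 71 to 196 limit Sirt1 and Sirt6.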
